A study of Rattus norvegicus with 6 samples.

Results

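The 10 genes of necroptosis and pyroptosis chosen by name were followed in the RNA-seq table of rat myocardium, and their 10 rows were found by gene name among 32623 rows. The members were the necroptosis genes Ripk1, Ripk3, Mlkl and Zbp1 and the pyroptosis genes Nlrp3, Aim2, Pycard, Casp1, Casp4 and Gsdmd. Each of the 10 names matched 1 row, and no other gene of the table overlapped any of them.

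Necroptosis is a lytic form of cell death in which the kinase RIPK1 or the nucleic acid sensor ZBP1 engages the kinase RIPK3. RIPK3 phosphorylates the pseudokinase MLKL, which then permeabilises the plasma membrane. In pyroptosis, a sensor such as NLRP3 or AIM2 recruits the adaptor ASC, encoded by Pycard, and caspase-1, which matures IL-1β and cleaves gasdermin D into a pore-forming fragment. Caspase-4, the relative of the mouse enzyme called caspase-11, cleaves gasdermin D after binding bacterial lipopolysaccharide. Both pathways are studied in the ischemic heart, where cardiomyocytes and infiltrating leukocytes can each carry their components, and much of their control lies in phosphorylation and cleavage, which RNA levels do not show.

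Total RNA was sequenced from 3 sham and 3 ischemia samples of rat myocardial tissue, all from wild type rats described as male. In the ischemia group a suture closed the left anterior descending coronary artery, with a time of 30 min given in the labels of both groups. No reperfused rats belonged to these samples. Libraries held 68529126 to 79591989 counts, and 3 counts in a library equal 0.0377 to 0.0438 CPM (counts scaled by the library total). This floor covers counting error only.

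Some libraries stood apart in ways the groups did not explain. Only 26 reads fell on 3 Y-linked genes in sham replicate 1, whereas the other libraries held 1772 to 4318. The summed FPKM (fragments scaled by gene length and library size) of 4 atrial genes reached 48341 and 39203 for sham replicates 1 and 3, but only 214.9 for sham replicate 2 and 1279 to 9610 for ischemia. The labels do not name the heart region sampled. Cardiomyocyte markers were abundant in each library, with a summed FPKM of 32888 to 56963 in sham and 17075 to 33111 in ischemia. None of the 9 tested passed in edgeR, and 4 had every ischemia library below every sham library (15% of all tested genes). At an unadjusted edgeR p under 0.05, 3 were lower (14.2% of all tested genes), as with DESeq2 (12.5%). All 5 tested fibroblast markers had negative log2 fold changes (median -2.22), and none passed an adjusted p of 0.05 in edgeR. Their summed FPKM was 685.0 to 2223 in sham and 263.8 to 681.5 in ischemia. Of the 5, 3 were lower at an unadjusted edgeR p under 0.05 (14.2% of all tested genes) and with DESeq2 (12.5%). Of 8 tested lymphocyte markers, 7 had a log2 fold change above 0 (49.9% of all tested genes). The edgeR test passed 1 as higher and 1 as lower (5.18% and 1.53%). For 5 of the 8 every ischemia library was above every sham library, and for 1 below (23.6% and 15% of all tested genes). At an unadjusted edgeR p under 0.05, 3 were higher and 1 lower (18.2% and 14.2%), as with DESeq2 (14.8% and 12.5%). The part of these cell types in the values of the members was not tested. Marker genes of neutrophils and monocytes had a summed FPKM of 118.2 to 192.6 in sham and of 2259, 9120 and 2422 in ischemia replicates 1 to 3. Of 14 tested genes on that list, 13 were higher at an edgeR adjusted p under 0.05 (5.18% of all tested genes). Their median log2 fold change was 6.07 over the 14. At an unadjusted edgeR p under 0.05, 14 were higher (18.2% of all tested genes), and DESeq2 called 12 (14.8%). In tissue RNA, a change in the number of cells of a type and a change in RNA per cell cannot be told apart.

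To show the DNA in front of the genes described here, the 250 bases upstream of the annotated start of Ripk3, Nlrp3 and Casp1 are given 5′ to 3′ from RefSeq (build GRCr8). Ripk3 was chosen as the member that passed the test, and the other two because they held a searched motif. The window of Ripk3 is chr15:33262026-33262275 on the minus strand, that of Nlrp3 is chr10:44827848-44828097 on the plus strand, and that of Casp1 is chr8:10872580-10872829 on the plus strand. Capitals mark motif matches.
Ripk3: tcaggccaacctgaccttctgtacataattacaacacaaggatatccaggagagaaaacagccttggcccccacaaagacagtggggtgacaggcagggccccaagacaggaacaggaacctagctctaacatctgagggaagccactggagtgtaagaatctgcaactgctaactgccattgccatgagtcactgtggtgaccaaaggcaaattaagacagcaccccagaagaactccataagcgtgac
Nlrp3: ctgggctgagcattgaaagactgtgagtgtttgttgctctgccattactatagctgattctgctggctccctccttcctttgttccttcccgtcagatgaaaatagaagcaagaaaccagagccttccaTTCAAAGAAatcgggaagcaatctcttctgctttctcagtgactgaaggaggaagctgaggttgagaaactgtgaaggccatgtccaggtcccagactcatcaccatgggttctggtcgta
Casp1: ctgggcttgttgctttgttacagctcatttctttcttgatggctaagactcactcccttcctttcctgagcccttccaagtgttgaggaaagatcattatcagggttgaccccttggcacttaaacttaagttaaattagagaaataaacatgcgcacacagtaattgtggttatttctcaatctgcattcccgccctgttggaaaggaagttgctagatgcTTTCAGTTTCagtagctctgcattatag

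The motifs searched on both strands were GAAA followed 2 bases later by another GAAA, the core of interferon-stimulated elements, TTCNNNGAA, a STAT element that reads the same on both strands, and GGG followed 2 bases later by TTTCC, a form of the NF-κB site. Windows of 300 bases, which run from 250 bases before to 50 after the start, were searched for 7 of the 10 members, and Zbp1, Gsdmd and Casp4 had no entry. Among 33469 such windows, 3.92% held the interferon motif, 8.87% held TTCNNNGAA and 1.53% held the NF-κB motif. Casp1 held the interferon motif on the minus strand from position -28, Nlrp3 held TTCNNNGAA from position -121, and the windows of Ripk1, Ripk3, Mlkl, Pycard and Aim2 held none of these motifs. The windows differed in CpG content, with 22 CpG dinucleotides for Ripk1, 10 for Pycard, 6 for Nlrp3, 5 for Mlkl, 4 each for Casp1 and Aim2 and 2 for Ripk3, against a median of 7 over all windows. No match overlapped another. Such matches are descriptions of the sequence and not binding sites.

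Ischemia was then compared with sham for each member to ask which components of the 2 pathways differed in RNA level. Ripk3, at 9.81-fold, was the only member that passed an edgeR adjusted p of 0.05. Its substrate Mlkl (log2 fold change -0.19, or -0.50 without ischemia replicate 2) and Gsdmd (-0.0011) did not pass. Nlrp3 was 7.15-fold higher without passing the threshold, and Ripk1 and Pycard were 1.72-fold and 1.80-fold higher, also without passing. Of the members, 9 had a mean FPKM of at least 0.5 and were tested with the quasi-likelihood test of edgeR. At an adjusted p under 0.05, 1 of 9 was higher and 0 lower, where 5.18% of 13964 tested genes were higher and 1.53% lower. The unadjusted p from edgeR was under 0.05 for 4 members, all higher (18.2% of tested genes were higher and 14.2% lower at that level). DESeq2 called 2 members higher and 0 lower, where it called 14.8% of tested genes higher and 12.5% lower. The study states a log2 fold change above 2 and a p under 0.01 for the upregulated MAPK pathway genes it selected. With that p read as unadjusted, 2 members passed, Ripk3 and Nlrp3 (3.31% of tested genes), and none had a log2 fold change below -2 at that p (1.34% of tested genes). The median log2 fold change of the 9 members was 0.78, against -0.0015 over all tested genes, and 7 were above 0, where 49.9% of tested genes were. Without ischemia replicate 2 the members above 0 were Ripk3 (2.58), Nlrp3 (1.83), Pycard (0.50), Ripk1 (0.40), Casp1 (0.16) and Gsdmd (0.053). Those below 0 were Casp4 (-0.48), Mlkl (-0.50) and Zbp1 (-0.56), so that the middle value was that of Casp1.

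**Figure D1:**
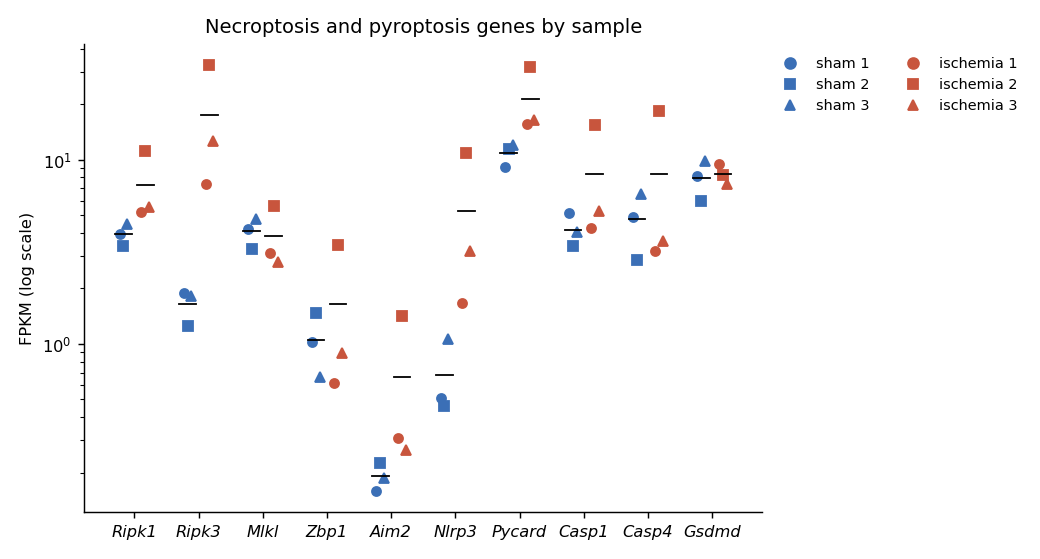
FPKM of the 10 members on a log axis in each of 3 sham (blue) and 3 ischemia (red) libraries, with marker shape for the replicate number and a black line for the group mean. Ripk3 lies between 1.25 and 1.89 in sham and between 7.40 and 32.5 in ischemia, and ischemia replicate 2 is the highest library for 9 of the 10 genes.

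Ripk3, the kinase that activates MLKL, is listed on the minus strand of chromosome 15, from 34470796 to 34479741 (positions as in the deposited table, build not given). Sham replicates 1 to 3 had an FPKM of 1.89, 1.25 and 1.81, and ischemia replicates 1 to 3 had 7.40, 32.5 and 12.6. These values rested on 289, 203 and 264 counts in sham and on 1221, 4879 and 1797 counts in ischemia. All 3 ischemia libraries lay above all sham libraries, and the lowest of them was still well above the highest sham library. The log2 fold change was 3.29 ± 0.54 (SE, n = 3 per group), with a 95% confidence interval of 1.999 to 4.59 and an edgeR adjusted p of 0.0340. The exact two-sided permutation p was 0.1, the smallest that 3 samples against 3 allow. Without ischemia replicate 2, the highest library, the log2 fold change was 2.58 with an edgeR adjusted p of 0.0303. The call was lost without sham replicate 1 (3.36, edgeR adjusted p 0.159), sham replicate 2 (3.21, 0.0862), sham replicate 3 (3.31, 0.139) or ischemia replicate 3 (3.44, 0.113), fits in which no gene of the table passed. It was also lost with the replicate number as a block (3.06, edgeR adjusted p 0.104), where again no gene passed.

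The partners of Ripk3 differed from it in their values. Ripk1, the kinase upstream of Ripk3 in death receptor signalling, lies on chromosome 17 from 31537591 to 31569904. Its FPKM was 3.96, 3.40 and 4.47 in sham and 5.17, 11.2 and 5.51 in ischemia. No overlap was seen between the groups, although ischemia replicates 1 and 3 lay close above sham. This gave a log2 fold change of 0.78 ± 0.29 (SE; edgeR adjusted p 0.129), and 0.40 without ischemia replicate 2.

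Mlkl, which encodes the pseudokinase that carries out membrane rupture, lies on chromosome 19 from 43506976 to 43528851. Its FPKM was 4.18, 3.27 and 4.78 in sham and 3.11, 5.59 and 2.78 in ischemia. Values of the groups overlapped, with ischemia replicates 1 and 3 below every sham library and ischemia replicate 2 above them. The log2 fold change was -0.19 ± 0.28 (SE), with a 95% confidence interval of -0.85 to 0.48 and an edgeR adjusted p of 0.655. The value of Ripk3 lies outside this interval. Without ischemia replicate 2 the log2 fold change of Mlkl was -0.50 (edgeR adjusted p 0.193), and without ischemia replicate 3 it was -0.038 (0.948).

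Zbp1, the interferon-inducible sensor of Z-form nucleic acid that can engage RIPK3 directly, was among the members with the lowest levels. Its FPKM was 1.03, 1.47 and 0.663 in sham and 0.611, 3.46 and 0.897 in ischemia. Only ischemia replicate 2 exceeded all sham libraries. Its log2 fold change was 0.46 ± 0.71 (SE; edgeR adjusted p 0.672), and it turned to -0.56 without ischemia replicate 2 (edgeR adjusted p 0.539).

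The balance within the necroptosis genes was read from ratios of FPKM within each library, which do not depend on the scaling of libraries. These pairs were chosen after the values were seen and are given without a test. The ratio of Ripk3 to Mlkl was 0.452, 0.381 and 0.379 in sham and 2.38, 5.81 and 4.55 in ischemia, so that the kinase went from the lower to the higher of the pair in every ischemia library. The ratio of Ripk3 to Ripk1 was 0.366 to 0.477 in sham and 1.43 to 2.91 in ischemia. The ratio of Ripk1 to Mlkl was 0.935 to 1.04 in sham and 1.66 to 1.998 in ischemia, a narrow range in both groups.

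**Figure D2:**
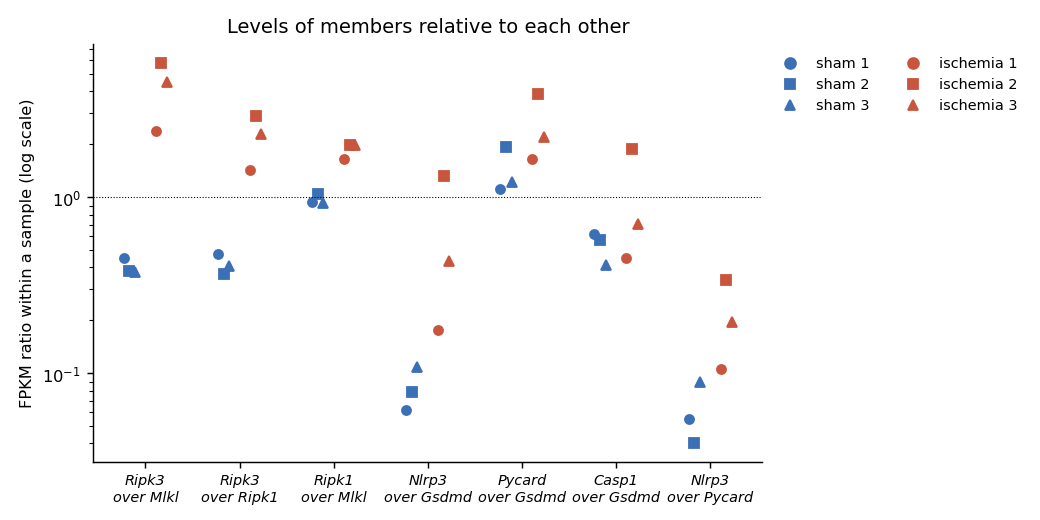
Ratios of FPKM between pairs of members within each library, on a log axis, with blue for sham, red for ischemia, marker shape for the replicate number and a dotted line at equal levels. The ratios Ripk3 over Mlkl, Ripk3 over Ripk1, Ripk1 over Mlkl, Nlrp3 over Gsdmd and Nlrp3 over Pycard do not overlap between the groups, whereas Pycard over Gsdmd and Casp1 over Gsdmd overlap.

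Of the members, 2 encode sensors of pyroptosis, Nlrp3 and Aim2. Nlrp3, which forms an inflammasome after loss of cell potassium and other signs of damage, lies on chromosome 10 from 45893018 to 45918254. Its FPKM was 0.506, 0.463 and 1.07 in sham and 1.66, 10.9 and 3.20 in ischemia, from 161, 156 and 322 counts against 571, 3392 and 942. All ischemia libraries were above all sham libraries, but ischemia replicate 1 was close to sham replicate 3. The log2 fold change was 2.84 ± 0.72 (SE), with a 95% confidence interval of 1.11 to 4.57, an unadjusted p of 0.00663 and an adjusted p of 0.0623 from edgeR. It passed with DESeq2 (2.81, adjusted p 0.000552) and without ischemia replicate 1 in edgeR (3.24, adjusted p 0.0245), and it was 1.83 without ischemia replicate 2 (edgeR adjusted p 0.0863).

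Aim2, a sensor of cytosolic DNA, had a mean FPKM of 0.428 and was left out of the test by the filter. The sham libraries held 14, 20 and 16 counts and the ischemia libraries 28, 115 and 21. The ischemia values did not overlap sham, but 2 of them were only slightly higher, and most of the difference came from ischemia replicate 2. Without a filter the log2 fold change was 1.57 ± 0.83 (SE; edgeR adjusted p 0.287).

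Pycard, which encodes the adaptor ASC, had the highest mean FPKM of the members in both groups. Its FPKM was 9.13, 11.5 and 12.0 in sham and 15.6, 31.99 and 16.3 in ischemia. In ischemia replicate 2 alone another member, Ripk3 (32.5), was above Pycard. No overlap was seen between the groups. The log2 fold change was 0.85 ± 0.32 (SE; edgeR adjusted p 0.131), and it was 0.50 without ischemia replicate 2. In all, 4 of the 9 tested members (Ripk1, Ripk3, Nlrp3 and Pycard) were higher in every ischemia library than in every sham library, where 23.6% of tested genes were, and 0 were lower in every one, where 15% of tested genes were.

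The inflammatory caspases Casp1 and Casp4 lie close together on chromosome 8, from 2604962 to 2614631 and from 2635851 to 2651652, both on the plus strand. Casp1, which matures IL-1β and IL-18, had an FPKM of 5.10, 3.39 and 4.03 in sham and 4.27, 15.5 and 5.23 in ischemia. Casp4 had an FPKM of 4.86, 2.84 and 6.54 in sham and 3.21, 18.3 and 3.62 in ischemia. For both genes the groups overlapped, with ischemia replicates 1 and 3 near sham and ischemia replicate 2 far above. The log2 fold changes were 0.88 ± 0.48 (SE; edgeR adjusted p 0.244) for Casp1 and 0.71 ± 0.68 (SE; edgeR adjusted p 0.494) for Casp4. Without ischemia replicate 2 they were 0.16 and -0.48 (edgeR adjusted p 0.734 and 0.420). The 2 genes are relatives, and reads of a shared stretch could have been lost in counting.

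Gsdmd, the substrate of both caspases and the pore-forming end of the pathway, lies on chromosome 7 from 116889572 to 116894134. Its FPKM was 8.20, 5.94 and 9.79 in sham and 9.43, 8.23 and 7.38 in ischemia. Values of the groups overlapped, and ischemia replicate 2 was not the highest library, unlike for the other 9 members. The log2 fold change was -0.0011 ± 0.20 (SE), with a 95% confidence interval of -0.49 to 0.49 and an edgeR adjusted p of 0.997. The ratio of Nlrp3 to Gsdmd was 0.0617, 0.0780 and 0.109 in sham and 0.176, 1.32 and 0.433 in ischemia, without overlap. The ratio of Pycard to Gsdmd overlapped between the groups, at 1.11 to 1.93 in sham and 1.65 to 3.89 in ischemia.

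**Figure D3:**
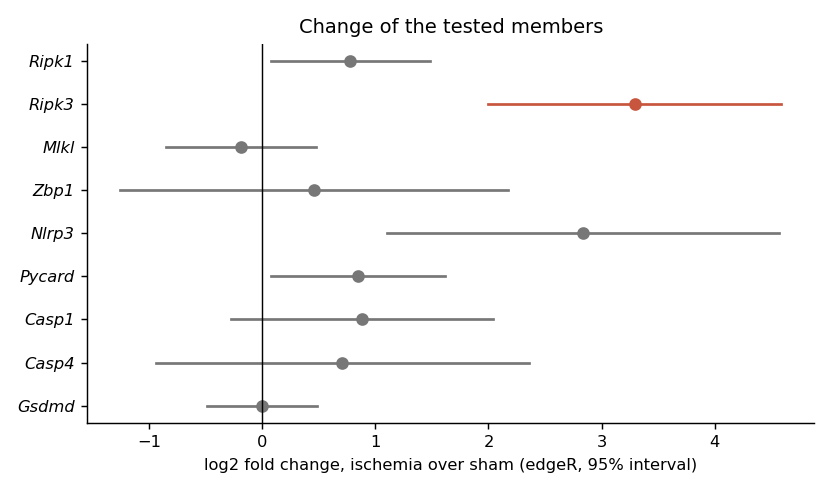
Log2 fold change of ischemia over sham for the 9 tested members from the edgeR fit, as points with 95% confidence intervals, in red where the adjusted p is under 0.05. Ripk3 stands at 3.29 and passes, Nlrp3 at 2.84 does not, and the intervals of Mlkl (-0.19) and Gsdmd (-0.0011) include 0.

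Read per length, the order of the members differed between the groups. In sham the mean FPKM ran from Pycard (10.9 ± 1.51, SD, n = 3) through Gsdmd (7.98 ± 1.93), Casp4 (4.75 ± 1.85), Casp1 (4.17 ± 0.87), Mlkl (4.08 ± 0.76) and Ripk1 (3.94 ± 0.53) to Ripk3 (1.65 ± 0.35), Zbp1 (1.05 ± 0.40), Nlrp3 (0.680 ± 0.338) and Aim2 (0.191 ± 0.033). Neighbours in this order overlapped between libraries except Ripk1 and Ripk3, and Nlrp3 and Aim2. In ischemia Pycard remained first (21.3 ± 9.26, SD, n = 3) and Ripk3 stood second (17.5 ± 13.2), followed by Casp4 (8.36 ± 8.57), Gsdmd (8.35 ± 1.03), Casp1 (8.33 ± 6.22), Ripk1 (7.29 ± 3.37), Nlrp3 (5.25 ± 4.95), Mlkl (3.83 ± 1.54), Zbp1 (1.66 ± 1.57) and Aim2 (0.664 ± 0.652). Here all neighbours overlapped, and the spread over the ischemia libraries was large. Ischemia replicate 2 had the highest FPKM for 9 of 10 members, and 39.3% of tested genes were highest in that library.

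Ischemia replicate 2 was also the library with the highest summed FPKM of neutrophil and monocyte markers, 9120 against 2259 and 2422 in the other ischemia libraries. Each of these sums exceeded every sham library, as did the values of Ripk3, Nlrp3, Ripk1, Pycard and Aim2. Of all tested genes, 23.6% were higher in every ischemia library than in every sham library. Summed FPKM of 10 macrophage markers was 216.0 to 306.0 in sham and 259.6, 377.8 and 265.8 in ischemia replicates 1 to 3. Of these 10 genes, 2 were higher and 0 lower at an edgeR adjusted p under 0.05 (5.18% and 1.53% of all tested genes). At an unadjusted edgeR p under 0.05, 4 were higher and 3 lower (18.2% and 14.2%), and DESeq2 called 4 and 2 (14.8% and 12.5%). Of the neutrophil and monocyte list no gene was at 0 in ischemia, and Retnlg was at 0 counts in all sham libraries. The part of these cells in the values of the members was not tested.

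Of 12154 tested genes compared, which left out members and placeholder names, the gene most like Ripk3 over the 6 libraries, by the root mean square difference of centred log2(CPM + 1), was Chst11 (0.117), which encodes a chondroitin sulfotransferase. It was followed by Lilrb3a (0.181), which encodes a leukocyte inhibitory receptor, and Cd14 (0.185), the lipopolysaccharide co-receptor of monocytes. Having been picked for their likeness to Ripk3, these genes share its difference between the groups by selection, with log2 fold changes of 3.57, 3.24 and 3.29. The FPKM of Cd14 was 5.36, 5.20 and 7.28 in sham and 28.1, 117.5 and 43.7 in ischemia.

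Surrounding pathway genes were described from 4 lists with 75 genes besides the members, of which 70 were in the table and 62 were tested. Of the 62, 6 were higher at an adjusted p under 0.05 and 0 lower, a share of 9.68% against 5.18% of all tested genes. Their median log2 fold change was 0.40, against -0.0015 over all tested genes, and 39 were above 0. At an unadjusted edgeR p under 0.05, 16 were higher and 2 lower (18.2% and 14.2% of all tested genes), and DESeq2 called 14 and 2 (14.8% and 12.5% of all tested genes). Without ischemia replicate 1, 12 genes of these lists were higher and 1 lower. Without ischemia replicate 2, 5 were higher and 1 lower, and without a sham library or ischemia replicate 3 none was called in edgeR.

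Of 24 tested genes that carry death receptor and Toll-like receptor signals to RIPK1, 3 rose, 0 fell and 21 did not pass. Their median log2 fold change was 0.49, and the share that rose was 12.5%, against 5.18% of all tested genes. At an unadjusted edgeR p under 0.05, 6 were higher and 0 lower (18.2% and 14.2% of all tested genes), as with DESeq2 (14.8% and 12.5%). Tnfrsf1a, the main TNF receptor, had an FPKM of 23.5, 25.2 and 32.5 in sham and 96.7, 111.5 and 73.4 in ischemia. Its log2 fold change was 1.70 ± 0.22 (SE; edgeR adjusted p 0.0272), with even values within each group. Pgam5, a mitochondrial phosphatase linked to RIPK3 signalling, also rose (log2 fold change 1.55 ± 0.18, SE; edgeR adjusted p 0.0272), with an FPKM between 12.2 and 12.6 in sham and of 32.9, 45.6 and 38.0 in ischemia. Otulin, which removes linear ubiquitin chains from the receptor complex, rose by 0.80 ± 0.17 (SE; edgeR adjusted p 0.0477). The ends of the list were Birc3 (2.27, edgeR adjusted p 0.0819), a ubiquitin ligase that restrains RIPK1, and Tlr3 (-0.71, 0.199), the receptor for double-stranded RNA. Casp8, whose product cleaves RIPK1 and RIPK3, had an FPKM of 1.76 to 1.94 in sham and 1.96, 8.60 and 2.85 in ischemia (1.14, edgeR adjusted p 0.192).

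Of 16 tested inflammasome sensors and regulators, 1 rose, 0 fell and 15 did not pass, with a median of 0.24. That share of 6.25% was near the 5.18% of all tested genes. There were 5 higher and 1 lower at an unadjusted edgeR p under 0.05 (18.2% and 14.2% of all tested genes). With DESeq2 there were 4 and 1 (14.8% and 12.5%). Nlrc4, the sensor of bacterial flagellin together with NAIP proteins, had 34, 35 and 21 counts in sham and 126, 1001 and 270 in ischemia. All ischemia libraries were higher, and the log2 fold change was 3.83 ± 0.84 (SE; edgeR adjusted p 0.0494). Without a filter on low values neither Nlrc4 (edgeR adjusted p 0.0578) nor Otulin (0.0645) passed. Nlrp12, the upper end of the list, had 0, 8 and 0 counts in sham and 208, 1563 and 153 in ischemia (edgeR adjusted p 0.0510). Gbp5, an interferon-induced GTPase that promotes NLRP3 assembly, was the lower end, with an FPKM of 4.94 to 10.4 in sham and 1.75 to 4.07 in ischemia (-1.67, edgeR adjusted p 0.0703).

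Of 9 tested genes for cargo, other gasdermins and gasdermin-cutting proteases, 1 rose, 0 fell and 8 did not pass, with a median of 1.15. The share that rose was 11.1%, from 1 gene, against 5.18% of all tested genes. Unadjusted, 3 were higher and 0 lower at an edgeR p under 0.05 (18.2% and 14.2% of all tested genes). DESeq2 called 2 and 0 (14.8% and 12.5%). Il1b, the cytokine that caspase-1 matures, had an FPKM of 1.01, 1.84 and 1.64 in sham and 12.3, 88.0 and 17.4 in ischemia (4.52 ± 0.85, SE; edgeR adjusted p 0.0397). Elane, the neutrophil elastase that can cut gasdermin D, was the upper end of the list, with 0 counts in every sham library and 18, 530 and 21 in ischemia. This is at least 64.6-fold higher against a floor of 3 counts per sham library, or at least 6.57-fold without ischemia replicate 2, and it did not pass (edgeR adjusted p 0.0875). Il33 was the lower end (-0.62, edgeR adjusted p 0.454). Gsdma, a pore-forming relative of Gsdmd, was left out by the filter and was singled out after its values were seen. It had 0 counts in all sham libraries against 91, 219 and 66 in ischemia, at least 42.2-fold higher by the same floor (25.97-fold without ischemia replicate 2), and its edgeR adjusted p without a filter was 0.0355.

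The membrane repair genes include subunits of the ESCRT-III complex that sheds damaged membrane after MLKL or gasdermin D activation. Of 13 tested, 1 rose, 0 fell and 12 did not pass, with a median of 0.12. That share of 7.69% was near the 5.18% of all tested genes. An unadjusted edgeR p under 0.05 gave 2 higher and 1 lower (18.2% and 14.2% of all tested genes), as did DESeq2 (14.8% and 12.5%). Anxa2, a calcium-dependent membrane-binding protein, had an FPKM of 153.4, 107.0 and 181.5 in sham and 346.7, 1039 and 552.3 in ischemia (2.04 ± 0.40, SE; edgeR adjusted p 0.0427). The ESCRT-III subunit Chmp4c was the lower end (-0.99, edgeR adjusted p 0.103). As Zbp1, Casp4 and Aim2 are known interferon-inducible genes, 12 interferon response genes were read beside them. None of the 12 passed the edgeR test, 3 were lower at an unadjusted p under 0.05 (14.2% of all tested genes) and with DESeq2 (12.5%), and their median log2 fold change was -0.50. Ifit3 had an FPKM of 7.78, 11.5 and 3.92 in sham and 4.75, 149.5 and 5.79 in ischemia, so that, as for Zbp1 and Casp4, only ischemia replicate 2 lay above sham.

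**Figure D4:**
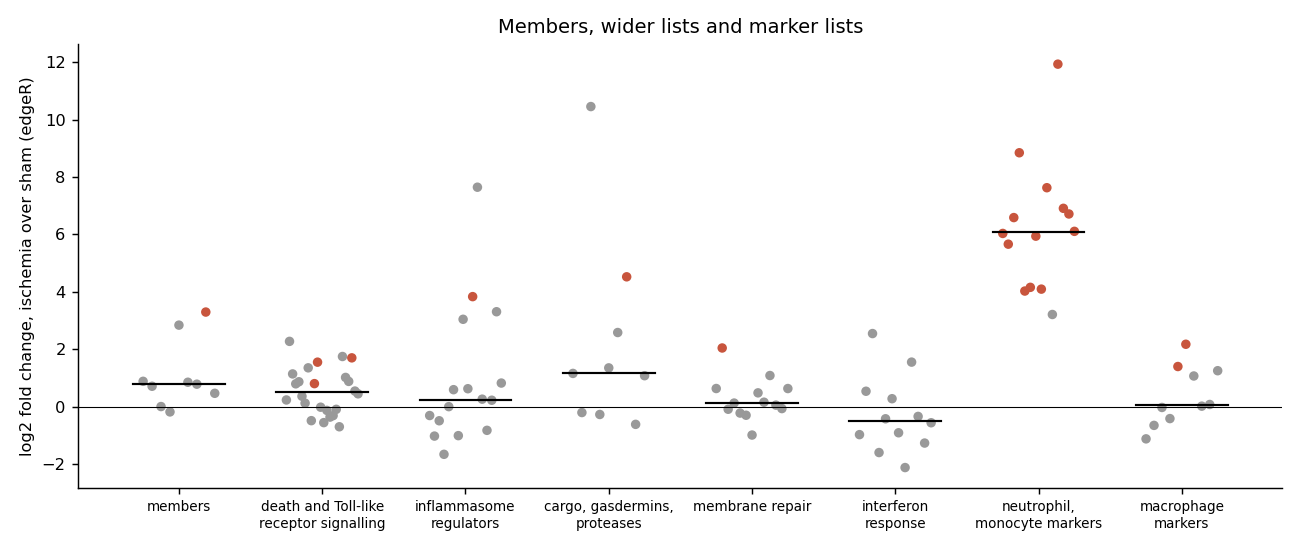
Log2 fold change of ischemia over sham from the edgeR fit for the tested genes of the members, 4 wider lists, an interferon list and 2 marker lists, in red where the adjusted p is under 0.05, with a black line at each median. The member median is 0.78 and that of the neutrophil and monocyte markers 6.07. Without ischemia replicate 2 (not drawn) the middle member value is that of Casp1, 0.16. The fitted values of genes without sham counts, such as Elane, depend on the prior count of the fit.

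The pathway annotation in the table gave larger groups. Of 116 tested genes that it assigns to necroptosis besides the members, 9 were higher and 0 lower, with a median log2 fold change of 0.12. Of 133 genes of NOD-like receptor signaling besides the members, 11 were higher and 2 lower, with a median of 0.36. Of 39 genes of cytosolic DNA sensing besides the members, 1 was higher and 0 lower, with a median of 0.38. As shares these were 7.76%, 8.27% and 2.56% higher, against 5.18% of all tested genes. At an unadjusted edgeR p under 0.05 the 3 groups had 23, 42 and 15 higher and 17, 15 and 1 lower genes, and DESeq2 called 21, 33 and 12 higher and 14, 15 and 1 lower. By these counts the share of higher genes in cytosolic DNA sensing was above that of all tested genes (18.2% and 14.8%), in contrast to the adjusted edgeR call.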

How the data were processed

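Per the labels, total RNA of myocardial tissue was prepared with a strand-aware total RNA kit. STAR and HTSeq are named in the submitters' processing notes, and their versions, settings and the genome build are not given in the sources used here. The authors deposited raw counts per Ensembl gene for each sample. The authors also deposited FPKM, in which a gene with no read carries 0.0001, read here as 0.

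The test took the 13964 genes whose FPKM averaged 0.5 or more across all 6 samples. Counts were scaled by the trimmed mean of M-values and compared with the quasi-likelihood test of edgeR, with group as the only term. Two-sided p-values were Benjamini-Hochberg adjusted over all tested genes (threshold 0.05). Standard errors came from the F statistic, and intervals from the t distribution. Single genes also had an exact permutation test on log2(FPKM + 0.1). The test was checked on simulated data.

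The members, lists and tests were chosen with earlier results of these data known. Named genes were the members, list genes past the threshold and the ends of each list. Casp8, Gsdma, Ifit3 and Retnlg were named after their values were seen, and the neighbours of a called member were ranked by likeness, so their own differences are a description. List names not in the table were not analysed here. Labels do not state whether a sample is 1 animal, so p-values measure the spread between these samples.

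Alternatives were limma on log2(FPKM + 0.1) and log2(FPKM + 1), DESeq2, median-ratio scaling, library totals, no filter, a mean FPKM of at least 5, the replicate number as a block and each sample left out. Software was DESeq2 1.42.0, limma 3.58.1 and edgeR 4.0.16 under R 4.3.3, and matplotlib 3.10.9 under Python 3.11.15.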

Additional observations from a re-analysis of the deposited data

How the results depend on the processing

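The log2 fold changes of Ripk3 (2.57 to 3.64), Nlrp3 (1.62 to 3.24), Ripk1, Pycard and Casp1 were positive under every alternative that tested them, and Ripk3 passed under 9 of 14. The number of higher members was 2 with DESeq2 and 0 with the replicate block, and 0 to 2 when a sample was left out. The same-numbered samples had correlations of deviations of -0.0748, -0.176 and -0.190. With 3 samples per group these values cannot decide whether the numbers pair the samples. Ripk3 stood at 3.06 with the replicate block. In that fit no gene of the table passed, and 3349 had an unadjusted edgeR p under 0.05. By the study's criterion of fold change and p, 1 member passed with limma on log2(FPKM + 1), with a mean FPKM of at least 5, where Nlrp3 was not tested, and with the replicate block, and 1 to 2 passed with a sample left out. The wider lists had 14 higher and 2 lower genes with DESeq2, 3 higher with library totals and 0 with the replicate block. With a sample left out they had 0 to 12 higher and 0 to 1 lower genes.

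Zbp1 turned to -0.56 and Casp4 to -0.48 without ischemia replicate 2, in ranges of -0.56 to 0.92 and -0.48 to 1.07 with a sample left out. Gsdmd, at -0.0011, was 0.087 and 0.076 with limma at pseudocounts of 0.1 and 1, 0.070 with library totals, 0.018 without a filter and 0.00060 with the replicate block. It ranged from -0.12 to 0.11 with a sample left out, with values of 0.11 without sham replicate 3, 0.053 without ischemia replicate 2 and 0.044 without ischemia replicate 3. Over all genes, DESeq2 called 2071 higher and 1742 lower against 723 and 214, a share of 54.3% higher against 77.2%. Library totals gave 509 and 83, no filter 493 and 93. The fit without ischemia replicate 1 gave 1490 and 1115 and that without ischemia replicate 2 gave 462 and 109. In the 4 fits that left out a sample and gave no call, 3020 to 3809 genes had an unadjusted edgeR p under 0.05. The cause was not tested. Aim2, below the filter, rested on 14 to 115 counts per library.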
